A study of Homo sapiens with 21 samples.

Results

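The transcripts of the translation initiation factors (eIFs) and elongation factors (eEFs) were followed in BJ cells, a human skin fibroblast line with a limited number of divisions. Members were the protein-coding genes whose symbols begin with EIF1 to EIF6, EEF1 or EEF2, apart from the eIF2 kinase genes and genes on chromosome Y, and 66 of the 61544 genes in the deposited count table met this rule. Cells were harvested at 5 passages (P3, P11, P24, P30, P33). In a separate experiment, P11 cells were given DOX (doxorubicin, a drug that traps topoisomerase on DNA) at 50 ng/ml or its solvent DMSO. Each of the 7 groups had 3 libraries of poly(A)-selected RNA, although the labels enter the molecule as genomic DNA. The series title asks what replicative and doxorubicin-induced senescence share. All libraries came from the same cell line, and the labels do not say whether replicates were grown separately, so each p-value reflects library-to-library spread that may be technical.

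Translation starts when eIF2 brings the initiator tRNA to the small ribosomal subunit, with eIF1, eIF1A, eIF3 and eIF5 bound to it, and when the cap-binding complex eIF4F (the cap binder eIF4E, the scaffold eIF4G and the helicase eIF4A) recruits that subunit to an mRNA. eIF2B recharges eIF2 with GTP, eIF5B joins the large subunit, and the eIF4E-binding proteins block eIF4E when the kinase mTORC1 is inactive. In elongation, eEF1A delivers tRNAs, the eEF1B complex recharges eEF1A, and eEF2 moves the ribosome along. Several of these factors belong to the TOP mRNAs, which begin with a cytosine and a stretch of pyrimidines (terminal oligopyrimidine tract) and which cells translate according to mTORC1 activity.

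Library totals ran from 12.946 to 27.194 M counts. Levels are counts scaled to 1 M by TMM-adjusted library size (CPM). Because the table gives only the whole genomic span as gene length, CPM were not compared between genes. Reads of genes that overlap on the same strand were not assigned alike throughout: of 9429 genes inside another gene of the same strand, 0 had reads in the passage libraries and 3950 were read in those of DOX and DMSO, so no level was compared between these sets. All 11 listed fibroblast markers were detected in every group, with a summed level of 14410 to 16460 CPM at P33, against 18960 to 19720 CPM at P3, and of 43240 to 44350 CPM with DOX, against 40730 to 41980 CPM with DMSO. Leukocyte markers summed to at most 2.51 CPM and endothelial markers to at most 6.36 CPM. Keratinocyte markers summed to 162.5 to 182.4 CPM at P33, against 302.1 to 328.7 CPM at P3, and to 352.7 to 441.5 CPM with DOX, against 336.0 to 387.6 CPM with DMSO. Of these 7 markers 5 were under 1 CPM and KRT5 was at 0 in every group. The desmosome gene DSP, which held most of the sum, had 155.72, 159.91 and 138.85 CPM at P33, against 315.16, 287.08 and 304.04 CPM at P3, and was called lower. KRT10 went the other way, with 22.2, 22.1 and 22.9 CPM at P33, against 13.4, 14.6 and 14.9 CPM at P3, and was called higher. Melanocyte and Schwann cell markers summed to 40.4 to 41.24 CPM at P33, against 30.51 to 33.07 CPM at P3, and to 56.27 to 57.81 CPM with DOX, against 81.17 to 83.62 CPM with DMSO, and 5 of these 6 markers, all but MITF, were under 1 CPM in every group. The part of other cell types in the results was not tested. In bulk RNA, fewer cells with a transcript and less of it per cell cannot be told apart.

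Of the 66 factors, 59 passed the filter on low counts and 7 did not (EEF1G, EEF1AKMT4, EEF1AKMT4-ECE2, EEF1E1-BLOC1S5, EIF4EBP3, EIF4E1B and EIF2S3B). EEF1G, which encodes the gamma subunit of the eEF1B complex, had 0 reads in all 21 libraries, and EIF4A1, which encodes the main eIF4A helicase, had 0 reads in the 15 passage libraries. Both overlap another protein-coding gene on the same strand, and their expression cannot be read from this table. EIF4E3, EEF1E1 and EEF1AKMT3 also overlap such genes and had 4, 6 and 31 reads in all passage libraries together. EIF4A1 and these 3 factors passed the filter on their reads in the DOX and DMSO libraries and stand among the uncalled factors in every passage comparison. In all, 31 of the 66 factors overlap another gene on the same strand.

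Most translation factor transcripts were lower at P33, the last passage, than at P3. Of the 59 tested, 44 were lower and 6 were higher at an adjusted p under 0.05, and 9 were not called (edgeR quasi-likelihood test, Benjamini-Hochberg adjustment over 16821 genes). Over all genes tested, 33.3% were called lower and 34.5% higher in this comparison. The median log2 fold change of the tested factors was -0.56, where the median of all tested genes was 0.0. Together the 66 factors took 1.28% to 1.30% of all counts at P33, against 1.63% to 1.64% at P3, and the 2 ranges did not overlap. Cytosolic ribosomal protein genes, another part of the translation machinery, took 1.97% to 1.99% of counts at P33, against at least 3.06% in every P3 library.

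**Figure D1:**
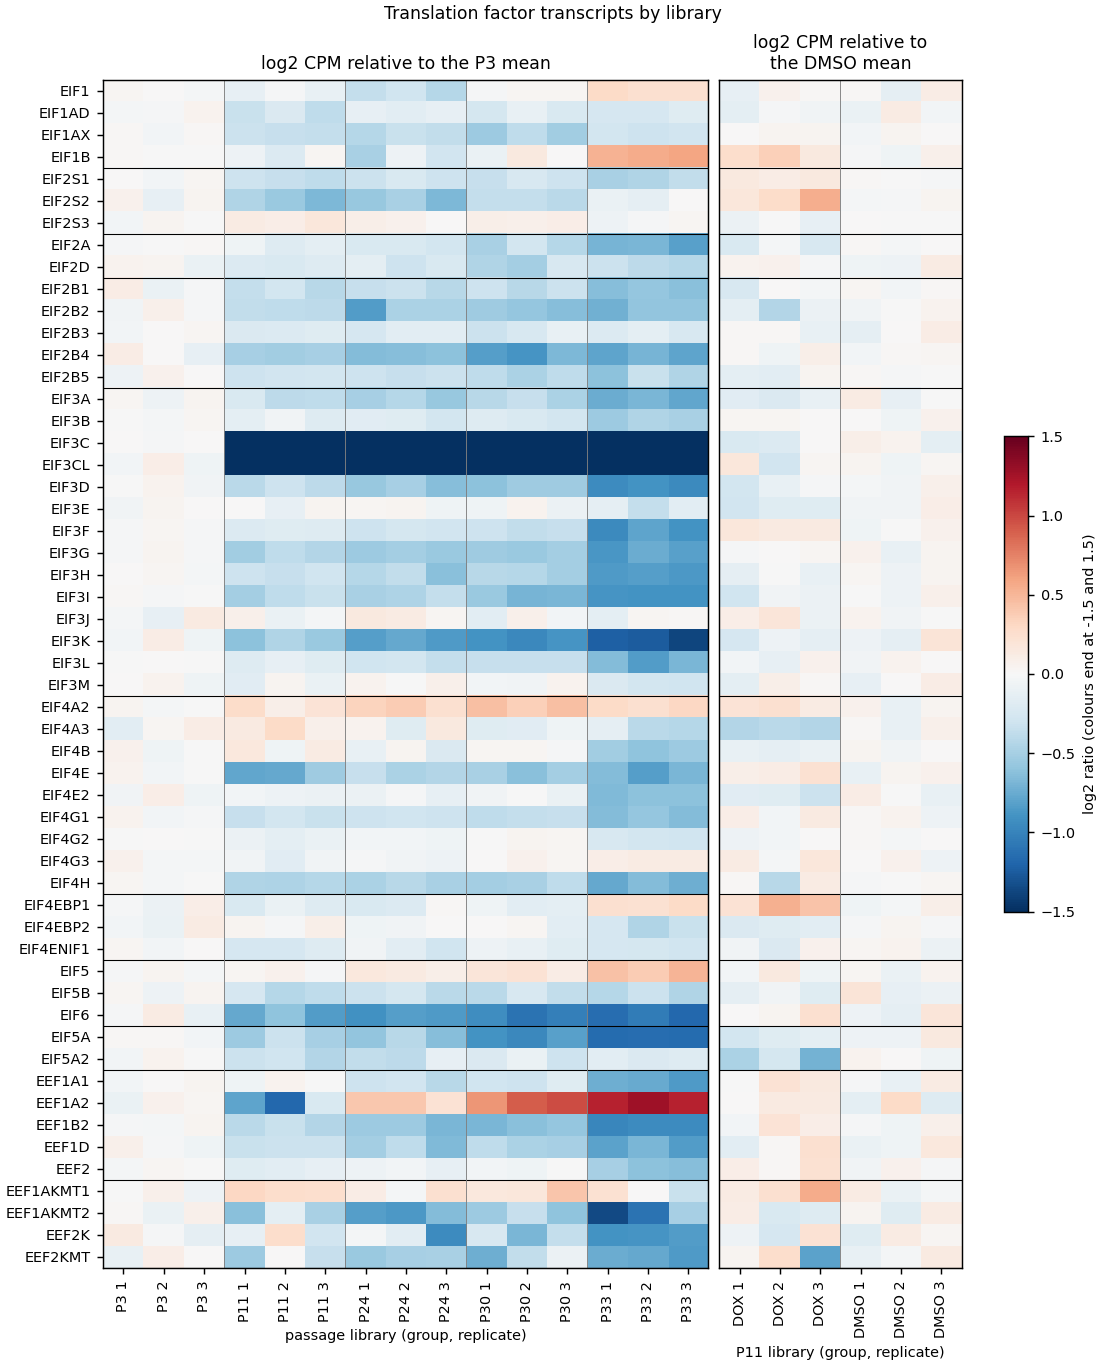
Level of 54 translation factors in each library (rows, grouped by role and separated by black lines), as log2 ratio to the P3 mean (left, 15 passage libraries) or to the DMSO mean (right, DOX and DMSO libraries). Passage values ran from -2.70 to 1.27. Most rows turn blue towards P33, with EEF1A2, EIF5, EIF1B, EIF1 and EIF4A2 red there, and the DOX columns are pale.

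The factors that select the start codon did not move together. EIF1 (chromosome 17, 41688885 to 41692668, hg38) encodes eIF1, which guards start codon selection, and had 289.8, 280.1 and 280.3 CPM at P33, against 242, 237 and 232 CPM at P3. EIF1B, its close paralog, had 36.4, 37.6 and 38.4 CPM at P33, against 25.8, 25.2 and 25.3 CPM at P3. All P33 libraries lay above all P3 libraries for both genes. EIF1 was 1.19-fold higher (log2 0.26, SE 0.057, adjusted p = 0.000193) and EIF1B 1.47-fold higher (log2 0.56, SE 0.076, adjusted p = 1.04e-07). EIF1AX, which encodes eIF1A, and EIF1AD, a gene with an eIF1A-like domain, were lower (log2 -0.29 and -0.23). EIF1 and EIF1B did not rise steadily over the passages. At P24 against P3 both were called lower (log2 -0.36 and -0.27, adjusted p = 2.7e-06 and 0.00486), with EIF1 at 175.9 to 192.6 CPM and EIF1B at 18.1 to 24.1 CPM at P24.

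Of the 3 eIF2 subunit genes 1 was lower, and of the 5 eIF2B subunit genes all were. EIF2S1, which encodes the alpha subunit that stress kinases phosphorylate, had 86.1, 88.3 and 93.2 CPM at P33, against 121, 117 and 123 CPM at P3, without overlap (log2 -0.43, SE 0.049, adjusted p = 2.78e-09). The beta and gamma subunit genes EIF2S2 and EIF2S3 were not called (log2 -0.08 and -0.02, SE 0.071 and 0.049). The eIF2B genes had a median log2 fold change of -0.62 and a range from -0.76 (EIF2B4) to -0.20 (EIF2B3). EIF2B4, which encodes the delta subunit, had 29.2, 31.1 and 29.3 CPM at P33, against 54.4, 50.7 and 46.3 CPM at P3, and already 35.1 to 35.7 CPM at P11. EIF2A and EIF2D, which encode alternative initiator tRNA carriers, were lower as well (log2 -0.73 and -0.38).

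The eIF3 complex, the largest initiation factor and the scaffold of the preinitiation complex, had 13 of its 14 tested genes lower at P33 and 0 higher, with a median log2 fold change of -0.83. EIF3K (chromosome 19, 38619082 to 38636955, hg38), a small subunit gene, had 29.8, 29.3 and 26.8 CPM at P33, against 67.5, 75.0 and 66.7 CPM at P3, a 2.43-fold difference (log2 -1.28, SE 0.072, adjusted p = 1.75e-16). The subunit genes EIF3D, EIF3I, EIF3F, EIF3H, EIF3G, EIF3A, EIF3L and EIF3B were lower by log2 -0.93 to -0.49. EIF3M and EIF3E had the smallest differences among those called, at -0.26 and -0.21. EIF3E, which encodes the e subunit, had 171, 147 and 169 CPM at P33, against 181, 194 and 189.8 CPM at P3, and its adjusted p of 0.00234 became 0.0669 without P33 replicate 2. EIF3J, the loosely bound subunit, was not called (log2 -0.03, SE 0.072).

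EIF3C and its near copy EIF3CL had the largest fold changes among called factors, and most of the difference lay between P3 and P11. Their counts summed to 21.7, 22.3 and 19.9 CPM at P33, against 111, 115 and 111 CPM at P3, and to 33.2, 31.7 and 31.0 CPM at P11. The P3 libraries stood far above all 12 later passage libraries. Reads cannot be divided with certainty between these copies, which lie on chromosome 16, so their summed counts were tested too, and the sum was lower at P33 by a log2 of -2.40. Singly, EIF3C had a log2 fold change of -2.25 (SE 0.082) and EIF3CL of -2.65 (SE 0.083). Whether read assignment in the P3 libraries had a part in this was not tested.

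Among the cap-binding factors, 7 of 11 tested genes were lower and 1 was higher at P33. EIF4E (chromosome 4, 98879276 to 98929133, hg38), the cap binder, had 60.7, 54.1 and 59.6 CPM at P33, against 99.0, 92.9 and 94.9 CPM at P3 (log2 -0.72, SE 0.065, adjusted p = 1.92e-11). Its level was as low by P11, at 55.7, 56.2 and 65.9 CPM, and P33 against P11 gave a log2 of -0.02 that was not called. In between, EIF4E had 74.9, 68.6 and 70.7 CPM at P24 and was called higher there than at P11. EIF4G1, the main scaffold, had 545, 575 and 545 CPM at P33, against 888, 831 and 849 CPM at P3 (log2 -0.63, SE 0.051, adjusted p = 1.65e-12). In both genes every P33 library lay below every P3 library.

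The paralogs of the cap-binding factors did not all follow. EIF4A2, the second eIF4A helicase, was the exception among called genes, with 465, 453 and 474 CPM at P33, against 393, 374 and 381 CPM at P3 (log2 0.28, SE 0.056, adjusted p = 4.94e-05). Its mean was highest at P30, where the libraries had 521, 491 and 525 CPM. EIF4G2, which encodes a scaffold without the eIF4E-binding site, had 844, 827 and 807 CPM at P33, against 996, 1004 and 989 CPM at P3 (log2 -0.27, SE 0.046, adjusted p = 4.09e-06). EIF4G3, another eIF4G scaffold gene, was not called (log2 0.12, SE 0.054, adjusted p = 0.0514). The helicase cofactor genes EIF4B and EIF4H and the cap-binding paralog gene EIF4E2 were lower by log2 -0.56, -0.72 and -0.63, and EIF4A3, which encodes the helicase of the exon junction complex, by -0.31.

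The genes for the eIF4E-binding proteins moved in opposite directions. EIF4EBP1, which encodes the best known mTORC1 substrate of this family, had 18.6, 18.4 and 19.2 CPM at P33, against 15.6, 14.8 and 16.8 CPM at P3 (log2 0.25, SE 0.081, adjusted p = 0.00638). EIF4EBP2 had 136, 119 and 129 CPM at P33, against 158, 151 and 177 CPM at P3 (log2 -0.34, SE 0.058, adjusted p = 4.63e-06). Neither gene's groups overlapped. EIF4ENIF1, which encodes an eIF4E transporter, was lower by -0.27. As a ratio of counts within a library, which is not a ratio of molecules, EIF4EBP1 per EIF4E was 0.306 to 0.340 at P33, against 0.157 to 0.177 at P3.

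EIF5 and EIF6 went apart at late passage. EIF5 (chromosome 14, 103333544 to 103345025, hg38) encodes the GTPase-activating protein of eIF2 and had 312, 299 and 328 CPM at P33, against 227, 237 and 226 CPM at P3, 1.36-fold higher (log2 0.44, SE 0.056, adjusted p = 2.23e-08). EIF6, which encodes a factor that keeps large ribosomal subunits from joining too early, had 16.1, 17.1 and 15.8 CPM at P33, against 35.0, 38.8 and 32.9 CPM at P3, 2.18-fold lower (log2 -1.12, SE 0.081, adjusted p = 7.19e-14). No P33 library overlapped with P3 in either gene. EIF6 overlaps another protein-coding gene on the same strand, and how reads of the shared stretch were assigned was not tested. EIF5B, the subunit-joining GTPase gene, was lower by -0.40.

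eIF5A, the hypusine-modified protein that helps ribosomes through difficult peptide bonds, is encoded mainly by EIF5A (chromosome 17, 7306999 to 7312463, hg38). EIF5A had 114, 115 and 114 CPM at P33, against 258, 258 and 246 CPM at P3, 2.22-fold lower (log2 -1.15, SE 0.065, adjusted p = 2.15e-16). Its paralog EIF5A2 had 33.2, 31.9 and 32.4 CPM at P33, against 36.1, 38.4 and 36.8 CPM at P3. The groups did not overlap, but the EIF5A2 difference was small (log2 -0.19, SE 0.079, adjusted p = 0.0313) and was not called with RLE size factors (adjusted p = 0.0528) or DESeq2 (adjusted p = 0.0689), nor without P3 replicate 1 or 2 or P33 replicate 2 or 3 (adjusted p = 0.0519 to 0.126). With only genes of at least 10 CPM its log2 was -0.05 (adjusted p = 0.603), and without overlapping genes -0.14 (adjusted p = 0.113). EIF5AL1, called lower at an adjusted p of 0.0463, had 133 reads in all passage libraries together and was not called with RLE size factors or DESeq2.

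Of the 5 tested elongation factor genes, 4 were lower at P33 and 1 was higher. EEF1A1 (chromosome 6, 73489308 to 73525587, hg38), which encodes the eEF1A found in most tissues, had 2379, 2329.7 and 2193 CPM at P33, against 3839, 3955 and 4055 CPM at P3 (log2 -0.78, SE 0.064, adjusted p = 1.99e-12). EEF2, which encodes the translocase, had 1922, 1769.7 and 1744 CPM at P33, against 2666, 2777 and 2689.8 CPM at P3 (log2 -0.58, SE 0.056, adjusted p = 6.67e-11). EEF1B2, an exchange factor subunit gene, had 192, 197 and 196 CPM at P33, against 373, 371 and 389.7 CPM at P3 (log2 -0.95, SE 0.057, adjusted p = 7.44e-16). In each of these genes all P33 libraries lay below all P3 libraries. EEF1D, which encodes another exchange factor subunit, was lower by -0.77.

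EEF1A1 has many processed pseudogenes, and 42 of them in the table held 6.49% to 6.92% of the reads of EEF1A1 and its copies at P33, against 8.56% to 8.86% at P3. Summed with them, EEF1A1 was lower by a log2 of -0.81. The second eEF1A gene, EEF1A2 (chromosome 20, 63488013 to 63499239, hg38), known from neurons and muscle, went the other way. EEF1A2 had 14.3, 15.5 and 14.3 CPM at P33, against 6.01, 6.74 and 6.57 CPM at P3, 2.29-fold higher (log2 1.19, SE 0.122, adjusted p = 2.78e-10). Its share of the summed EEF1A1 and EEF1A2 counts was 0.598% to 0.662% at P33, against 0.156% to 0.170% at P3.

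Genes for enzymes that modify the elongation factors were lower or uncalled. EEF2K, which encodes the kinase that inactivates eEF2, had 9.60, 9.70 and 10.03 CPM at P33, against 19.7, 17.7 and 16.3 CPM at P3 (log2 -0.87, SE 0.154, adjusted p = 8.33e-06). The groups did not overlap, while at P24 its 3 libraries spread from 9.28 to 17.6 CPM. The methyltransferase genes EEF1AKMT2 and EEF2KMT were lower (log2 -0.95 and -0.79), and EEF1AKMT1 was not called (log2 -0.01, SE 0.133). EEF1AKMT2 had few reads, with 1.39 to 2.51 CPM at P33, against 3.31 to 3.73 CPM at P3. It also overlaps another protein-coding gene on the same strand, and how reads of the shared stretch were assigned was not tested.

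**Figure D2:**
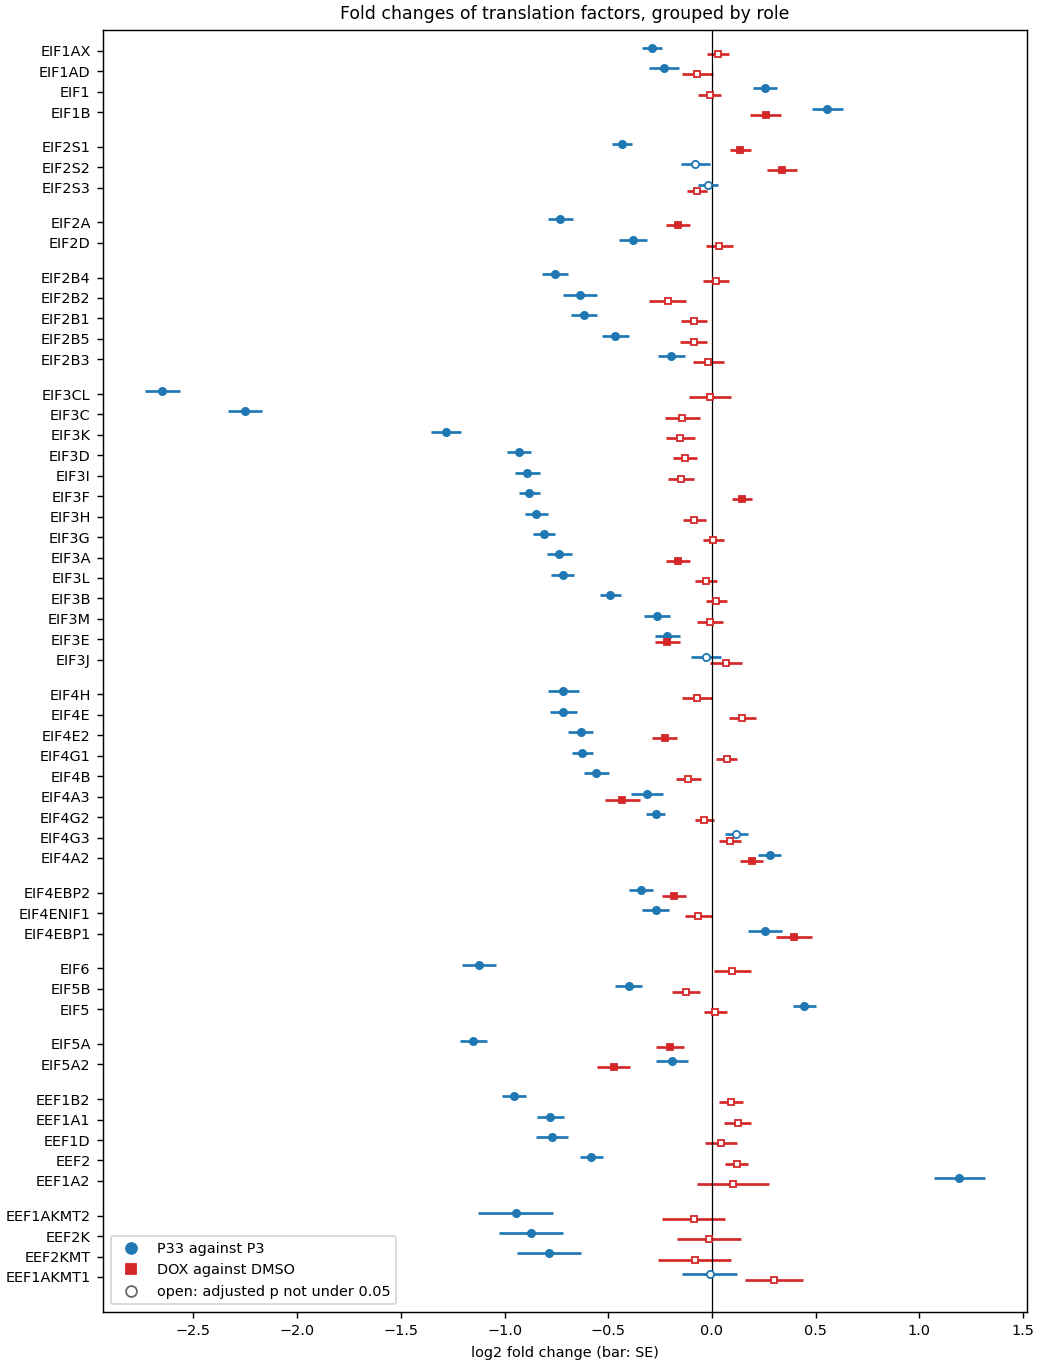
Log2 fold changes with their standard errors for 54 factors grouped by role (rows), at P33 against P3 (blue circles) and with DOX against DMSO (red squares), filled where the adjusted p was under 0.05. The P33 values reach -2.65 for EIF3CL and 1.19 for EEF1A2, whereas all DOX values shown lie between -0.47 and 0.39.

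Most calls of lower factors fell in the first step, P11 against P3, and in the last, P33 against P30. At P11 against P3, 34 factors were lower and 2 higher, where 23.6% and 22.9% of all tested genes were. At P24 against P11, 9 were lower and 2 higher, against 17.7% and 16.0% of all genes. At P30 against P24, 3 were lower and 4 higher, against 17.1% and 18.0%, so both middle steps moved a smaller share of factors than of genes at large. At P33 against P30, 29 were lower and 7 higher, against 24.8% and 23.6% of all genes, with a median log2 fold change of -0.24 for the factors.

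**Figure D3:**
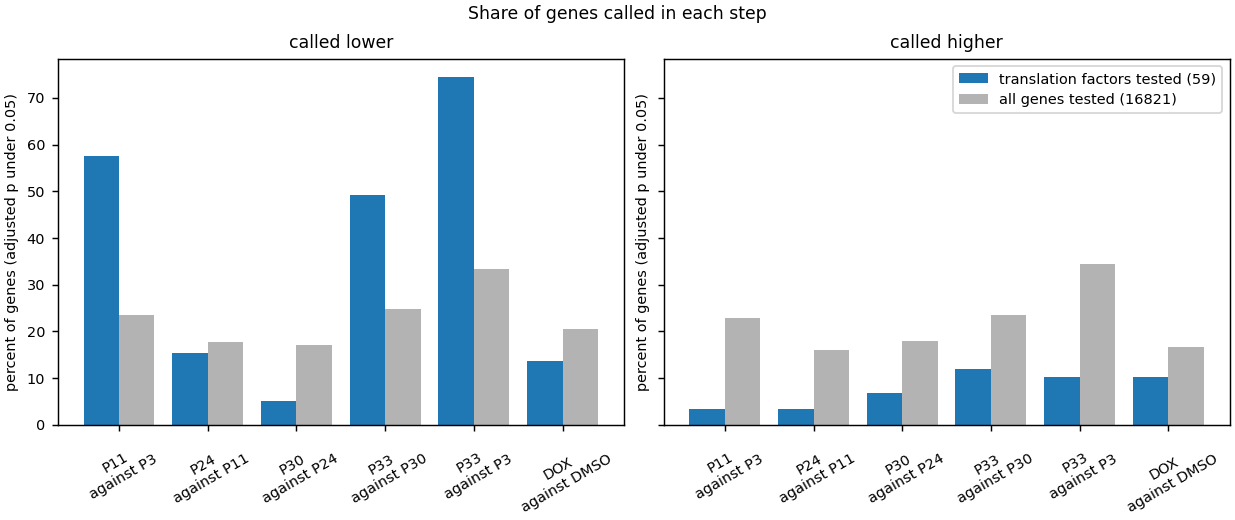
Percent of the 59 tested factors (blue) and of all 16821 tested genes (grey) called lower (left) or higher (right) at an adjusted p under 0.05, in each passage step, at P33 against P3 and with DOX against DMSO. Lower factors make up 57.6% of those tested at P11 against P3 and 49.2% at P33 against P30, but 15.3% and 5.08% in the steps between.

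Compared with P3 directly, 37 factors were lower and 2 higher at P24, where 27.8% and 26.6% of all genes were. At P30, 35 were lower and 3 higher, where 29.6% and 29.0% of all genes were. Of the 44 factors lower at P33, 32 were already lower at P11, and 28 were lower at all 4 later passages. The 32, 28 and 44 share the P3 libraries. How many of all tested genes follow this and the next patterns over the passages was not counted. None of these patterns is therefore shown to be particular to the factors. In 20 factors both the first and the last step were called lower, among them 10 eIF3 genes, EEF1B2, EEF1D and EIF5A. EIF3K shows such a stepwise course, with 45.5 to 51.0 CPM at P11, 38.8 to 41.0 CPM at P24, 35.6 to 37.9 CPM at P30 and 26.8 to 29.8 CPM at P33.

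In the last step fell 7 factors that were not called at P30 against P3 (EEF2, EIF3E, EIF3M, EIF4B, EIF4E2, EIF4EBP2 and EIF4G2). EIF4E2 had 46.6, 47.9 and 48.0 CPM at P33, against 70.9, 73.6 and 68.7 CPM at P30 (log2 -0.58, SE 0.061, adjusted p = 1.49e-09), and had 67.6 to 79.1 CPM in every earlier library. EEF2 had 2594 to 2710.1 CPM at P30, so that its 3 P33 libraries lay below all other passage libraries.

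EEF1A2, EIF1AX and EIF2S2 were lower at P11 against P3 and higher at P33 against P30. EEF1A2 had 2.86 to 5.50 CPM at P11, 7.49 to 8.53 CPM at P24, 10.2 to 12.7 CPM at P30 and 14.3 to 15.5 CPM at P33. The P11 libraries lay below those of P3, and each later passage lay above P3 without overlap. EIF2S2 had 218 to 254 CPM at P11 and 316 to 348 CPM at P33, which overlaps the 320.1 to 364 CPM of P3. With P11 in place of P3 as the early passage, 37 factors were lower and 7 higher at P33, where 29.7% and 27.7% of all tested genes were.

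**Figure D4:**
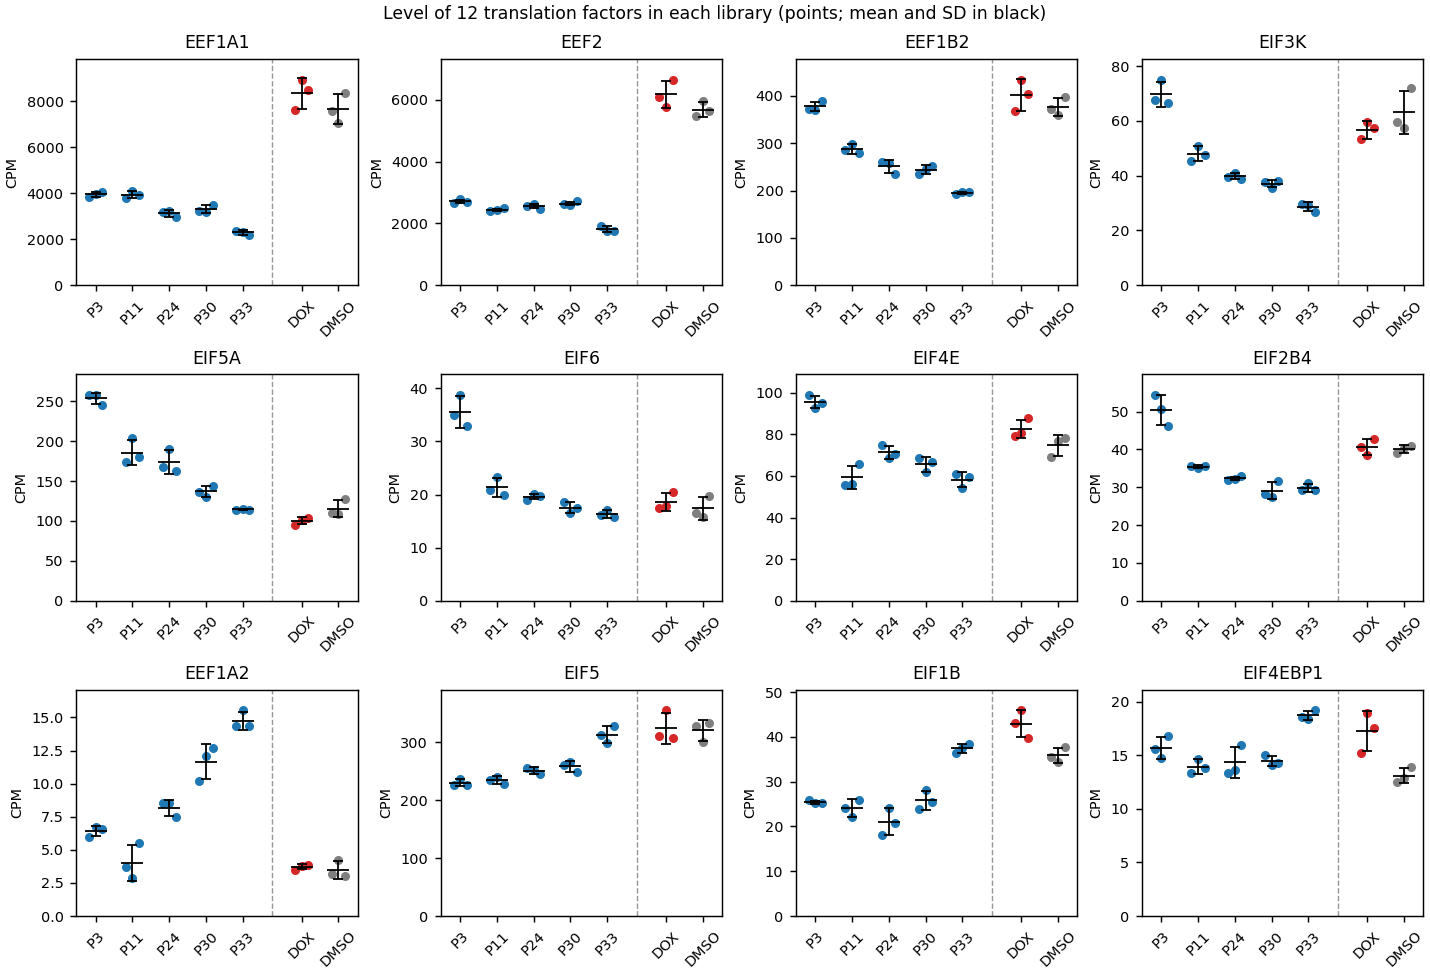
Level in CPM of 12 factors in each library (points, with the group mean and SD in black), at the 5 passages (blue) and, right of the dashed line, with DOX (red) and DMSO (grey), which were counted differently and are not to be compared with the passages. EEF1A1 and EEF2 are lowest at P33, while EIF6, EIF4E and EIF2B4 are already low at P11 and EEF1A2, EIF5, EIF1B and EIF4EBP1 are highest at P33 among the passages.

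The start sites of the factors were read for TOP-like tracts, because TOP mRNAs share mTORC1 control. A start was counted where the first transcribed base in RefSeq (GRCh38.p14) was a C followed on the same strand by at least 4 further C or T bases. Among factors in the RefSeq promoter table, 13 of 53 (24.5%) had such a start, against 5.14% of all 27305 genes there. The sequences below show 15 bases before the annotated first base and 15 bases from it, with the pyrimidine run in capitals. A gene was counted if any of its annotated starts met this, and EEF1B2 has another start, at an A, without a tract. Shown are the elongation factors and a choice of initiation factors with a tract that were lower at P33, together with EIF4A2 and EIF2S3, the tested ones with a tract that were not.
EEF1A1 (chr6:73521018-73521047, minus strand): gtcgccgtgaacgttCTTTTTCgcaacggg
EEF2 (chr19:3985449-3985478, minus strand): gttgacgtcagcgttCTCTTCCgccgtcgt
EEF1B2 (chr2:206159880-206159909, plus strand): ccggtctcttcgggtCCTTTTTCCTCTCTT
EIF4B (chr12:53006441-53006470, plus strand): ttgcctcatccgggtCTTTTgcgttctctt
EIF3F (chr11:7987322-7987351, plus strand): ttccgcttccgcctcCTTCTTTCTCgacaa
EIF3D (chr22:36529152-36529181, minus strand): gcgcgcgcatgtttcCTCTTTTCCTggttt
EIF3K (chr19:38619173-38619202, plus strand): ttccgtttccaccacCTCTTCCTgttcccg
EIF4A2 (chr3:186783562-186783591, plus strand): gttgggcgccgctgtCTTTTCagtcgggcg
EIF2S3 (chrX:24054941-24054970, plus strand): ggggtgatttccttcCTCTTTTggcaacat

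By contrast, EIF1 and EIF5, which were higher at P33, and EIF4E, which was lower from P11 on, begin with a purine at the starts shown, whose first base alone is in capitals. EIF5 has another annotated start, also at a purine.
EIF1 (chr17:41688870-41688899, plus strand): aggcaccgcccctctGccccagtcactgag
EIF5 (chr14:103334222-103334251, plus strand): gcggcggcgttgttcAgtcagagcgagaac
EIF4E (chr4:98929119-98929148, minus strand): ccttctggagcggttGtgcgatcagatcga

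Of the 12 tested factors with such a tract, 10 were lower and 1 was higher at P33 against P3, with a median log2 fold change of -0.66. Of 31 tested factors without a tract, 26 were lower and 3 higher, with a median of -0.47. EIF4A1, EIF4E3 and EEF1E1, which have no tract and almost no reads in the passage libraries, were left out of the 31. In the last step, P33 against P30, 10 of 12 with a tract were lower and 0 higher (median -0.35), against 13 lower and 4 higher of 31 without (median -0.15). At P11 against P3 the order was the other way, with 6 of 12 lower and a median of -0.15 with a tract, and 20 of 31 lower and a median of -0.30 without. These are descriptions of small sets, and the difference between them was not tested. All 8 tested factors known from the literature as TOP mRNAs (EEF1A1, EEF1B2, EEF1D, EEF2, EIF3E, EIF3F, EIF3H and EIF4B) were lower at P33 against P3 and again in the last step.

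DOX moved few translation factor transcripts. Of the 59 tested, 8 were lower and 6 higher with DOX than with DMSO, and 45 were not called. Over all genes tested, 20.6% were lower and 16.7% higher, so the factors' 13.6% and 10.2% lay below the shares of genes at large. The median log2 fold change of the factors was -0.01, and the factors together took 2.25% to 2.41% of counts with DOX, against 2.19% to 2.32% with DMSO, ranges that overlap.

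EIF4EBP1 rose most with DOX, to 15.2, 18.9 and 17.6 CPM, against 12.5, 12.9 and 13.9 CPM with DMSO, without overlap (log2 0.39, SE 0.087, adjusted p = 0.000457). EIF2S2 had 438, 472 and 571 CPM with DOX, against 384, 387 and 401 CPM with DMSO (log2 0.34, SE 0.071, adjusted p = 0.000266). EIF1B had 43.1, 45.9 and 39.8 CPM with DOX, against 35.5, 34.4 and 37.7 CPM with DMSO (log2 0.26, SE 0.075, adjusted p = 0.00612). All DOX libraries lay above all DMSO libraries in these genes.

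EIF4A2 and EIF3F rose less (log2 0.19 and 0.14, SE 0.055 and 0.049). The EIF4A2 call was lost without DMSO replicate 2 (adjusted p = 0.0501), and the EIF3F call without DOX replicate 1 or DMSO replicate 1 (adjusted p = 0.0806 and 0.148) and with no count filter (adjusted p = 0.157). EIF2S1, the alpha subunit gene of eIF2, had 95.8, 94.0 and 96.1 CPM with DOX, against 88.0, 86.5 and 85.7 CPM with DMSO (log2 0.14, SE 0.050, adjusted p = 0.031). Its groups did not overlap, but the call was lost in 5 of the 6 fits that left out a DOX or DMSO library (adjusted p = 0.0504 to 0.1002) and with no count filter (adjusted p = 0.223).

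EIF5A2 and EIF4A3 fell most. EIF5A2 had 34.9, 40.5 and 29.8 CPM with DOX, against 50.7, 48.9 and 46.5 CPM with DMSO (log2 -0.47, SE 0.078, adjusted p = 9.19e-06). EIF4A3 had 38.5, 39.4 and 38.6 CPM with DOX, against 53.1, 48.7 and 55.4 CPM with DMSO (log2 -0.43, SE 0.085, adjusted p = 0.000115). In both, every DOX library lay below every DMSO library.

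EIF4E2, EIF3E and EIF5A had smaller falls (log2 -0.23, -0.21 and -0.20). EIF5A had 95.0, 101 and 104 CPM with DOX, against 109, 109 and 127 CPM with DMSO, and its call was lost without DOX replicate 1 or DMSO replicate 3 (adjusted p = 0.0801 and 0.158) and in a fit of the DOX and DMSO libraries alone (adjusted p = 0.0587). EIF4EBP2, EIF2A and EIF3A were lower by -0.18, -0.16 and -0.16, and the EIF4EBP2 call was lost without DMSO replicate 2 (adjusted p = 0.0685).

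The abundant elongation factor transcripts were not called with DOX. EEF1A1 had 7617, 8943 and 8511 CPM with DOX, against 7584, 7076 and 8356 CPM with DMSO, and EEF2 had 6096, 5767 and 6651 CPM with DOX, against 5466, 5956 and 5623 CPM with DMSO. The groups overlapped in both (log2 0.12 and 0.12, SE 0.064 and 0.055, adjusted p = 0.131 and 0.0913). Neither outcome was stable: EEF1A1 was called higher without DOX replicate 1 or DMSO replicate 3 (adjusted p = 0.0372 and 0.0353) and EEF2 without DOX replicate 2 or DMSO replicate 2 (adjusted p = 0.0232 and 0.0339) with DESeq2 (adjusted p = 0.0394) and with only genes of at least 10 CPM (adjusted p = 0.0337). EIF4E had 79.3, 80.8 and 87.8 CPM with DOX, against 69.0, 76.9 and 78.3 CPM with DMSO (log2 0.15, SE 0.065, adjusted p = 0.0785), and was called higher with only genes of at least 10 CPM (adjusted p = 0.0322). Of the 8 known TOP factors 1 was higher and 1 lower, with a median log2 fold change of 0.07.

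The effects of DOX and of late passage on the same factors were then set against each other, as the difference of DOX against DMSO and P33 against P3, which share no libraries. DOX and DMSO cells were at P11, so this difference also holds what changed between P3 and P11. In 37 of the 59 tested factors this difference was called positive and in 5 negative, where 25.8% and 25.4% of all tested genes were. All 8 factors lower with DOX were also lower at P33, and EIF1B, EIF4A2 and EIF4EBP1 were higher in both. As 74.6% of the tested factors were lower at P33, most of any 8 would be. This overlap was not tested, and the same overlap among all genes was not counted. EIF2S1 and EIF3F were lower at P33 and higher with DOX. Of the 34 factors lower at P33 and uncalled with DOX, 30 had a difference that was itself called. These 34 were picked by their fall at P33, which enters the difference. EEF1A1 differed between the effects by a log2 of 0.90 (SE 0.090, adjusted p = 5.19e-10), EEF2 by 0.70 (SE 0.079, adjusted p = 5.34e-09), EIF4E by 0.86 (SE 0.092, adjusted p = 2.01e-09) and EIF5A by 0.95 (SE 0.093, adjusted p = 3.26e-10). P11 against P3 gave -0.01 for EEF1A1, -0.16 for EEF2, -0.69 for EIF4E and -0.45 for EIF5A. For EIF4E, P33 against P11 gave -0.02. The difference of effects with P11 as the early passage was not tested. For EIF4A2 and EIF4EBP1 the difference was not called (log2 -0.09 and 0.14, SE 0.079 and 0.119).

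Other genes of translation and its control were counted by list. Over all tested genes, 34.5% were called higher and 33.3% lower at P33, and 16.7% higher and 20.6% lower with DOX. Of 10 listed genes for the stress-induced transcription factor ATF4 and its targets, 9 were higher and 0 lower at P33 (median log2 fold change 1.05), and 8 were higher and 0 lower with DOX (median 0.78). PSAT1, a serine synthesis enzyme gene, rose with DOX to 126, 135 and 119.8 CPM, against 40.0, 34.3 and 38.1 CPM with DMSO (log2 1.76, SE 0.070, adjusted p = 9.65e-20). Among the 6 genes for eIF2 kinases and phosphatase subunits, 3 were higher and 2 lower at P33, and 2 were higher and 1 lower with DOX, too few genes to set apart from those shares. EIF2AK2, which encodes the double-stranded RNA-activated kinase PKR, had 259, 276 and 242 CPM at P33, against 132, 114 and 149 CPM at P3 (log2 0.97, SE 0.096, adjusted p = 1.29e-10). PPP1R15A, which encodes the stress-induced phosphatase subunit GADD34, had 139.9, 139 and 157 CPM with DOX, against 185, 177 and 181 CPM with DMSO (log2 -0.32, SE 0.065, adjusted p = 0.00018).

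The next list held 22 genes for cytosolic tRNA synthetases, which charge tRNAs, and for their partner proteins, the AIMPs. Of these, 8 were higher and 12 lower at P33 (median -0.22), and 15 were higher and 2 lower with DOX (median 0.23). WARS1 (tryptophan) had 311, 327 and 327 CPM at P33, against 129, 133 and 128 CPM at P3 (log2 1.31, SE 0.056), while QARS1 (glutamine) had 101, 96.6 and 93.6 CPM at P33, against 192, 195 and 201 CPM at P3 (log2 -1.01, SE 0.053). IARS1 (isoleucine) had 304, 288 and 269.6 CPM with DOX, against 167, 161 and 157 CPM with DMSO (log2 0.83, SE 0.052). None of these sets overlapped between its groups.

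The mTORC1 list held 14 genes, of the kinase complex and of translation control more widely. Of these, 3 were higher and 8 lower at P33, and 3 were higher and 3 lower with DOX. The DOX counts are near the shares of all genes. MKNK2, which encodes a kinase of eIF4E, had 79.9, 78.4 and 82.5 CPM at P33, against 26.9, 26.2 and 27.0 CPM at P3 (log2 1.59, SE 0.057, adjusted p = 2.24e-21). With DOX, MKNK2 had 40.6, 38.5 and 36.1 CPM, against 22.6, 23.5 and 22.3 CPM with DMSO (log2 0.75, SE 0.062, adjusted p = 8.65e-12). RPS6KB2, an S6 kinase gene, was lower at P33 (log2 -0.94, SE 0.074). DEPTOR, an mTOR inhibitor gene, was higher at P33 and with DOX (log2 1.54 and 1.33) at levels of at most 2.24 CPM.

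Of 8 termination, recycling and rescue genes, 6 were lower and 0 higher at P33, against 1 lower and 2 higher with DOX. HBS1L, a ribosome rescue GTPase gene, had 52.2, 58.8 and 55.5 CPM at P33, against 97.1, 89.6 and 95.4 CPM at P3 (log2 -0.76, SE 0.060), and ETF1, which encodes the release factor eRF1, was lower by -0.45. Among 9 genes for hypusine and diphthamide enzymes, which modify eIF5A and eEF2, 1 was higher and 3 lower at P33, and 4 were higher and 0 lower with DOX. The 3 lower at P33 equal the share of all genes. DOHH, which completes hypusine on eIF5A, had 4.84, 5.51 and 5.21 CPM at P33, against 8.97, 9.48 and 10.01 CPM at P3 (log2 -0.87, SE 0.127, adjusted p = 3.81e-07). Of 5 genes for poly(A)-binding proteins and partners, 2 were higher and 2 lower at P33 and 1 was higher and 1 lower with DOX. PABPC4 was lower at P33 (log2 -0.57, SE 0.053) and higher with DOX (log2 0.22, SE 0.052).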

How the data were processed

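RNA was taken in 21 libraries, 3 in each of 7 groups. The authors deposited raw counts of reads for each gene as whole numbers. Per the submitters' processing notes, cutadapt 3.3, HISAT2 2.1.0, SAMtools 1.11, featureCounts 2.0.1 and DESeq2 1.34.0 were used, with builds hg38 and GRCh38.p13. Counting options and strand setting are not stated in the sources at hand. All 61544 rows carry a gene name, so none was left out of library sizes.

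Counts were fitted with edgeR 4.0.16 in R 4.3.3: filterByExpr (minimum count 10) kept 16821 genes and left out 44723, libraries were scaled by TMM, and all libraries entered 1 quasi-likelihood model with group means (14 residual degrees of freedom, biological coefficient of variation 5.48%). Tests were two-sided, adjusted by Benjamini-Hochberg over all 16821 genes, and called at an adjusted p under 0.05. The SE given with a log2 fold change was derived from its test, as the absolute log2 fold change divided by the square root of the quasi-likelihood F. Precision is set by 3 libraries a group and by depth: P3 libraries held 20.886 to 26.35 M counts, P11 15.001 to 18.994 M, P24 16.912 to 21.867 M, P30 12.946 to 19.066 M, P33 18.418 to 21.361 M, DOX 21.678 to 27.194 M and DMSO 18.174 to 24.654 M.

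Members and gene lists were chosen with earlier results of these data known. Full values went to a fixed core of factors and, for P33 against P3, DOX against DMSO and their difference, to the 5 largest called rises and falls with at least 5 CPM in the higher group. Other lists gave up to 3 called genes with the largest change. Sensitivity was tried with other size factors, DESeq2 1.42.0, other count filters, fits within the passage or the DOX and DMSO libraries, overlapping genes left out, a replicate block and each library left out. Alternatives that summed near copies or used P11 as the early passage were chosen after seeing the data. Replicate numbers did not pair samples: 0 of 24 same-numbered pairs correlated above 0.1.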

Additional observations from a re-analysis of the deposited data

Results flagged for a closer look

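The effect of DOX (against DMSO) and the effect of late passage (P33 against P3) differed by their own test in 37 factors with a positive difference and in 5 with a negative one. A positive difference means a higher log2 fold change with DOX than at P33. The largest positive log2 differences were 2.64 for EIF3CL and 2.11 for EIF3C (SE 0.133 and 0.118), whose counts cannot be divided with certainty, 1.22 for EIF6 (SE 0.119), 1.13 for EIF3K (SE 0.1003) and 1.05 for EEF1B2 (SE 0.080). EIF6 had a log2 fold change of 0.10 with DOX and -1.12 at P33, and EEF1B2 of 0.09 with DOX and -0.95 at P33. Part of each of these P33 falls lay between P3 and P11, the passage of the DOX and DMSO cells. P11 against P3 already gave -2.10 for EIF3CL, -1.64 for EIF3C, -0.73 for EIF6, -0.54 for EIF3K and -0.39 for EEF1B2. The negative differences were -1.09 for EEF1A2 (SE 0.214), -0.43 for EIF5 (SE 0.079), -0.30 for EIF1B (SE 0.107), -0.28 for EIF5A2 (SE 0.111) and -0.27 for EIF1 (SE 0.080). EEF1A2 had 3.51, 3.81 and 3.82 CPM with DOX, against 3.15, 4.24 and 3.05 CPM with DMSO (log2 0.10), and its rise of 1.19 was at P33. The EIF1B difference was not called without DOX replicate 3 or DMSO replicate 3 (adjusted p = 0.0574 and 0.0517), and the EIF5A2 difference was lost in 7 fits that each left out 1 library (adjusted p = 0.0513 to 0.144). Overlapping genes were counted differently in the passage libraries and in the DOX and DMSO libraries, and each effect was taken within its own set.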

How the results depend on the processing

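Of the called factors, RLE size factors lost 4 of 11 at P24 against P11 (EIF3A, EIF3H, EIF3L and EIF4B), 2 of 50 at P33 against P3 (EIF5A2 and EIF5AL1) and 1 of 36 at P33 against P30 (EIF4A2), and DESeq2 lost at most 2 in any comparison. Leaving out overlapping genes left 33 factors tested, of which 25 were lower at P33, 19 at P11, 22 at P24 and 21 at P30 against P3 (1 higher at P24), 15 lower at P33 against P30 and 4 at P24 against P11, and 21 with a positive difference of effects. At P24 against P11, 5 were lower with RLE size factors or a 10 CPM filter, and 4 higher within the passage libraries. At P30 against P24, the 10 CPM filter gave 2 higher and 7 lower, and the passage libraries alone 6 lower. Against P3, 1 factor was higher at P11 with no count filter and 4 at P24 with the 10 CPM filter. Within the DOX and DMSO libraries alone 5 were lower with DOX.

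Without 1 library each, P33 against P3 gave 41 to 44 lower and 6 to 7 higher, P11 against P3 gave 0 to 2 higher, P24 against P3 gave 1 to 2 higher, P24 against P11 gave 4 to 12 lower, P30 against P24 gave 2 to 5 higher and 2 to 5 lower, and the difference gave 3 to 5 negative. DOX against DMSO gave 6 to 10 lower and 4 to 8 higher. The replicate block, with numbers that do not pair the samples (4 of 21 libraries correlated best with their own number), gave 43 lower and 6 higher at P33 against P3.

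Reversed values were near 0 and uncalled, apart from EIF2S2 at P33, which was called at 0.48 against P11 and stood at 0.0648 with the 10 CPM filter, and EIF5A2, at 0.16 against P11. With DOX, the 10 CPM filter and the fit within the DOX and DMSO libraries gave 0.016 and 0.0082 for EEF2K, 0.018 and 0.012 for EIF1 and 0.0188 and 0.0113 for EIF3CL. Leaving out 1 library gave -0.148 to 0.0799 for EEF2K, -0.0640 to 0.0419 for EIF1, -0.129 to 0.0999 for EIF3CL and -0.0566 to 0.0484 for EIF5. The EIF3E and EIF4A3 calls at P33 were lost with the 10 CPM filter (adjusted p = 0.296 and 0.0634), and those of EIF2S1, EIF4A2 and EIF4E with P11 as the early passage (adjusted p = 0.142, 0.19 and 0.815). With the 10 CPM filter, TMM scaling was computed anew from the genes kept. At P33 against P3, EIF3E then went from -0.21 to -0.07, EIF5A2 from -0.19 to -0.05 and EIF2S2 from -0.08 to 0.0648. Of the 50 factors tested with that filter, 34 were lower and 7 higher at P33. Few reads limit EIF4A1, EIF4E3, EEF1E1, EEF1AKMT3 and EIF5AL1 in the passage libraries, and for all these changes the cause was not tested.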
